A study of Rattus norvegicus with 6 samples.

Results

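The 6 protein-coding genes, Slc4a11, Thop1, Cited1, Mmd, Enc1 and Rasgrp3 are described here among 40456 genes counted in H9c2 cells, a rat cardiomyoblast line, after knockdown of the long non-coding RNA Tug1. The 6 genes were chosen by their measured values: abundant coding transcripts that were clearly lower in the knockdown libraries than in the controls. Their lower values are therefore the reason they are listed, and those values are given as a description, with no p-value, and support nothing. Tests are reserved for their relatives, pathway partners and chromosomal neighbours, which were not among the genes so chosen. The lists of relatives and partners were, however, drawn up with earlier results of these data known. Their p-values and counts of calls are therefore not independent of that knowledge.

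All libraries came from wild-type H9c2 (2-1) cells kept in low serum with 1 µM retinoic acid for 5 days, then exposed for 24 h to 25 nM of a locked nucleic acid gapmer with a lipid transfection reagent. A gapmer pairs with an RNA and recruits RNase H, which cuts that RNA. The control group (3 libraries) received a negative control gapmer and the knockdown group (3 libraries) a gapmer against Tug1. Each group thus rests on a single oligonucleotide, in a single cell line. Nothing in the labels says that the replicates were separate cultures, so the p-values measure the spread between these libraries, which may be technical. The oligonucleotides that define the groups are shown here 5′ to 3′ as the labels give them, each of 16 bases, since every comparison is between cells that received the first and cells that received the second.
Tug1 gapmer: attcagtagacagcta
Negative control gapmer: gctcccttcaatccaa

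The 6 genes come from unrelated families. Slc4a11 encodes a membrane transporter of the bicarbonate transporter family that moves protons and is best known from the corneal endothelium. Thop1 encodes thimet oligopeptidase, a zinc enzyme that cleaves short peptides such as bradykinin and products of the proteasome. Cited1 encodes a nuclear coregulator that has no DNA-binding domain and acts through the acetyltransferases CBP and p300, for example with TFAP2 and SMAD factors. Mmd (also PAQR11) encodes a membrane protein of the PAQR family, to which the adiponectin receptors belong. Enc1 encodes a kelch protein with a BTB domain, the kind of protein that links substrates to the ubiquitin ligase CUL3 and that can bind actin. Rasgrp3 encodes an exchange factor that loads Ras and Rap GTPases with GTP and responds to diacylglycerol.

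Total counts ran from 12978548 to 13544337 per library, so that 1 CPM, the unit of level used throughout (counts scaled to library size and by edgeR's TMM factor), stood for 13 to 13.5 counts. Tug1 itself stood at 54.6, 51.9 and 55.3 CPM in control libraries 1 to 3 and at 11.9, 11.2 and 12.4 CPM in knockdown libraries 1 to 3, so the libraries follow their labels. The labels call the cells cardiomyocytes, and 5 of 12 cardiomyocyte markers (Myh6, Myh7, Nppb, Ryr2 and Nkx2-5) had 3 counts or fewer in every library. Tnnt2, Actc1, Gata4 and Pln were measurable, and all 8 skeletal muscle markers were. The summed skeletal muscle markers stood at 911 to 920 CPM in controls and 1340 to 1420 CPM after knockdown, with 7 of 8 higher. The summed cardiomyocyte markers stood at 381 to 411 and 429 to 483 CPM (2 higher and 1 lower), the smooth muscle markers at 889 to 989 and 1030 to 1190 CPM (2 of 4 higher), and the fibroblast markers at 36800 to 38600 and 31900 to 34600 CPM (1 higher and 2 lower of 5). Endothelial markers summed to 2.07 to 3.70 CPM over both groups, with 3 of 4 at 3 counts or fewer throughout. Leukocyte markers summed to 3.22 to 5.41 CPM in controls and 6.73 to 8.94 CPM after knockdown, where Cd68 was higher and Ptprc had no count. The part of these shifts in the values below was not tested.

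Promoter sequence was at hand for 4 of the 6 genes, in RefSeq's tables for the rat assembly GRCr8. It is printed for readers who want to compare the starts of these genes. That all of them fell is how they were chosen, and whether they share any regulation was not tested. Shown are the 250 bases before the listed start of each, 5′ to 3′ on the gene's strand, with matches to any of 10 short motifs in capitals. The windows are chr7:9295958-9296207 on the minus strand for Thop1, chrX:71395024-71395273 on the minus strand for Cited1, chr10:75570203-75570452 on the plus strand for Mmd, and chr6:25710592-25710841 on the minus strand for Rasgrp3. The listed start of Rasgrp3 lies inside the span of the gene in the same assembly, which lists 9 transcripts for it, so other starts exist.
Thop1: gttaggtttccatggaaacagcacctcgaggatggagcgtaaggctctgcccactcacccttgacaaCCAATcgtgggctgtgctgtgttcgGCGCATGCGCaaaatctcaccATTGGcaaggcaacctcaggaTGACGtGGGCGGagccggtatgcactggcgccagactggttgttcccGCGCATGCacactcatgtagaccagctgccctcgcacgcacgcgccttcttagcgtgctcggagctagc
Cited1: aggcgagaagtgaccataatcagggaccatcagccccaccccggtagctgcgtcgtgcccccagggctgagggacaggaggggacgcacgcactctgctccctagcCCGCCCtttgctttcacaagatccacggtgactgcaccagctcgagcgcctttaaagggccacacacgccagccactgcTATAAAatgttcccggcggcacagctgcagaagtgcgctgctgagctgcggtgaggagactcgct
Mmd: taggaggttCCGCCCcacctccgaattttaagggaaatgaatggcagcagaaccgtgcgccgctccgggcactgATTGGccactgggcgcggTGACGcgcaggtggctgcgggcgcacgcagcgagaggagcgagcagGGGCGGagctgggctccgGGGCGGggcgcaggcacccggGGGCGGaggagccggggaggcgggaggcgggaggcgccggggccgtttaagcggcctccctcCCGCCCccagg
Rasgrp3: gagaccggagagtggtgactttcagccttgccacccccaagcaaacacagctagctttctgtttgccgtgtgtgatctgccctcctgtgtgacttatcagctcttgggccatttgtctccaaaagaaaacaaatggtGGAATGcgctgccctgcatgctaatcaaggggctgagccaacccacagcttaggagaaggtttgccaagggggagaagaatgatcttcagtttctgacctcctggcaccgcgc

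Both strands of each window were searched. The motifs were TATAAA for the TATA box, CCAAT for the CCAAT box, GGGCGG for the GC box, CACGTG for the E-box, TGANTCA for the AP-1 site, TGACG for the CRE core, CCGGAA for the ETS core, GGAATG for the TEAD core, GCGCATGC for the NRF1 core and TGACNNNGC for the ARE core, which can overlap the CRE core. No motif matched in all 4 windows. The GC box matched in Thop1, Cited1 and Mmd, and in 56.9% of the 10529 windows of tested genes. Mmd held 5 such boxes, the nearest ending 6 bases before the start. The CCAAT box and the CRE core matched in Thop1 and Mmd (35.5% and 27.7% of tested windows). The NRF1 core matched at 3 places in Thop1, 2 of them overlapping, and in 4.56% of tested windows. The TATA box matched in Cited1 alone, beginning 65 bases before the start (6.84% of tested windows), and the TEAD core in Rasgrp3 alone (10.2%). The E-box, AP-1 site, ETS core and ARE core matched in none of the 4 (8.07%, 4.51%, 24.1% and 12.2% of tested windows). GC content was 59.6% in Thop1, 62.4% in Cited1, 74.0% in Mmd and 53.2% in Rasgrp3, against a median of 60.0% over tested windows. CpG frequency, as observed over expected, was 0.879 in Mmd and 0.283 in Rasgrp3, which lay at percentiles 72.0 and 12.1 of tested windows. The 4 windows thus differed among themselves in base composition and in motifs. Sequence for Slc4a11 and Enc1 was not used here, nor were transcript sequences, so pairing of either gapmer with the 6 transcripts was not examined.

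All 6 genes passed the filter on low counts. The count of calls is given only beside its background: all 6 were called lower (edgeR adjusted p under 0.05) in the fit over all genes, as were 30.9% of 14216 tested genes. Genes called in either direction made up 61.7% of those tested. The control and knockdown libraries did not overlap for any of the 6, as for 65.6% of tested genes. These counts follow from how the genes were chosen. The mean level left after knockdown ran from 13.9% (Slc4a11) to 35.8% (Enc1) of the control mean, with a median of 21.7%, beside 22% for Tug1. In bulk RNA, fewer cells that express a gene and less RNA per cell cannot be told apart. Counts of the 6 together took 0.0819% to 0.0860% of each control library and 0.0228% to 0.0240% of each knockdown library.

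**Figure D1:**
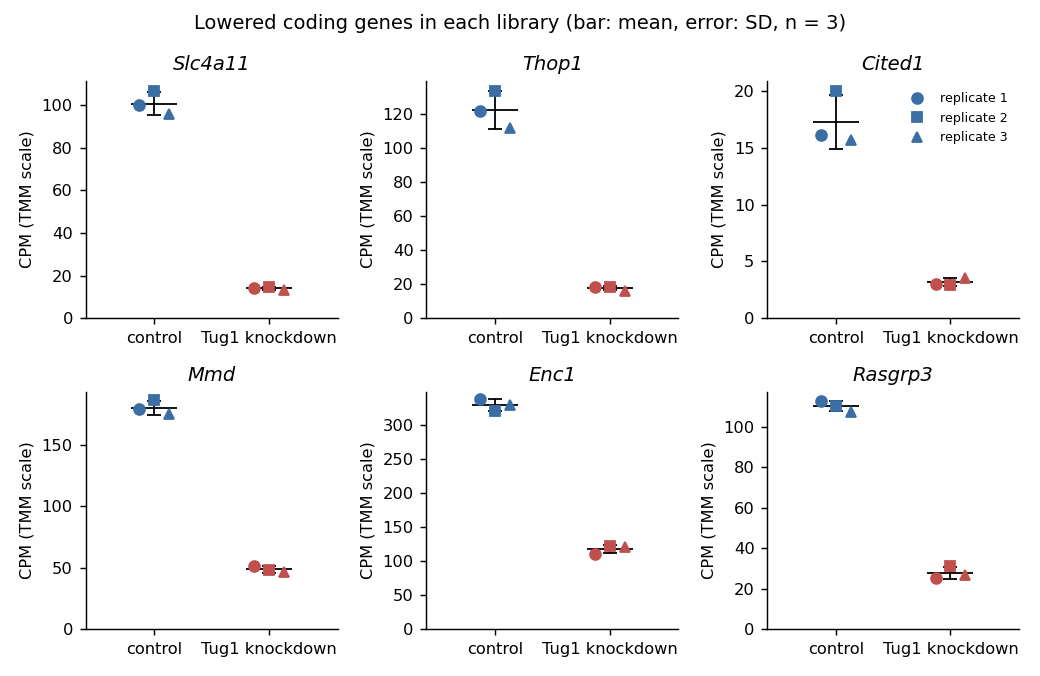
Level of each of the 6 genes in CPM (vertical axis from 0, own scale per gene) in the 3 control (blue) and 3 knockdown (red) libraries; bars are means and error bars SDs (n = 3), and symbols mark the replicate number. The groups are separated for every gene, from a lowest control 2.63 times the highest knockdown library for Enc1 to 6.60 times for Slc4a11.

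Slc4a11, the transporter, stood at 99.7, 106.5 and 95.6 CPM in control libraries 1 to 3 and at 14.3, 14.5 and 13.3 CPM in knockdown libraries 1 to 3. The knockdown libraries lay close together, and the lowest control was 6.60 times the highest of them. The means were 100.6 ± 5.52 and 14.02 ± 0.658 CPM (SD, n = 3 each), a log2 fold change of -2.84 (SE 0.0709). Among coding genes with a mean of at least 10 CPM only the endothelin precursor Edn1, at -2.87, had a lower value.

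Thop1, the oligopeptidase, stood at 121.8, 133.4 and 111.6 CPM in the controls and at 18.5, 18.6 and 16.2 CPM after knockdown. Control library 2 was the highest and control library 3 the lowest control for Thop1, as they were for Slc4a11, Cited1 and Mmd, while knockdown library 3 was the lowest of its group for Thop1, Slc4a11 and Mmd. Its means of 122.3 ± 10.9 and 17.8 ± 1.36 CPM (SD, n = 3 each) gave a log2 fold change of -2.78 (SE 0.0759). Slc4a11 and Thop1 were the closest pair of the 6 genes. Their log2 levels were taken with a prior count of 2 and set against each gene's own control mean. Over the 6 libraries these levels differed by a root mean square of 0.0572.

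Cited1, the coregulator, was the member with the fewest counts, with 211, 259 and 204 in the controls and 42, 40 and 47 after knockdown. In CPM these were 16.2, 20.0 and 15.7 against 3.04, 2.95 and 3.54. Control library 2 stood above the other controls, and the groups were still 4.43-fold apart at their nearest libraries. The log2 fold change was -2.44 with an SE of 0.146, the widest of the 6 (the others ran from 0.0495 to 0.0759). The coefficient of variation between controls was 13.7%, against 2.41% to 8.93% for the other 5 genes.

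Rasgrp3, the exchange factor, stood at 112.9, 110.5 and 107.6 CPM in the controls and at 25.4, 31.1 and 26.5 CPM after knockdown. Its controls were the tightest of the 6 genes (coefficient of variation 2.41%) and its knockdown libraries the widest (10.9%), with knockdown library 2 above the other 2. The means of 110.3 ± 2.66 and 27.7 ± 3.03 CPM (SD, n = 3 each) gave a log2 fold change of -2.00 (SE 0.0676).

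Mmd, the PAQR protein, stood at 179.6, 186.3 and 174.9 CPM in the controls and at 51.5, 47.7 and 46.4 CPM after knockdown, a log2 fold change of -1.89 (SE 0.0562). Here knockdown library 1 was the highest of its group. Enc1, the kelch protein, stood at 338.1, 321.4 and 329.9 CPM in the controls and at 110.7, 122.2 and 120.9 CPM after knockdown, a log2 fold change of -1.48 (SE 0.0495). Enc1 kept the largest share of its control level, with knockdown library 1 the lowest of its group. Levels of different genes are not compared, since transcript lengths were not at hand.

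No library was highest or lowest for all 6 genes. Control library 2 was the highest control for 4 of them and control library 1 for the other 2. Knockdown library 3 was the lowest of its group for 3 genes, library 1 for 2 and library 2 for Cited1, while knockdown library 2 was the highest for 4.

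**Figure D2:**
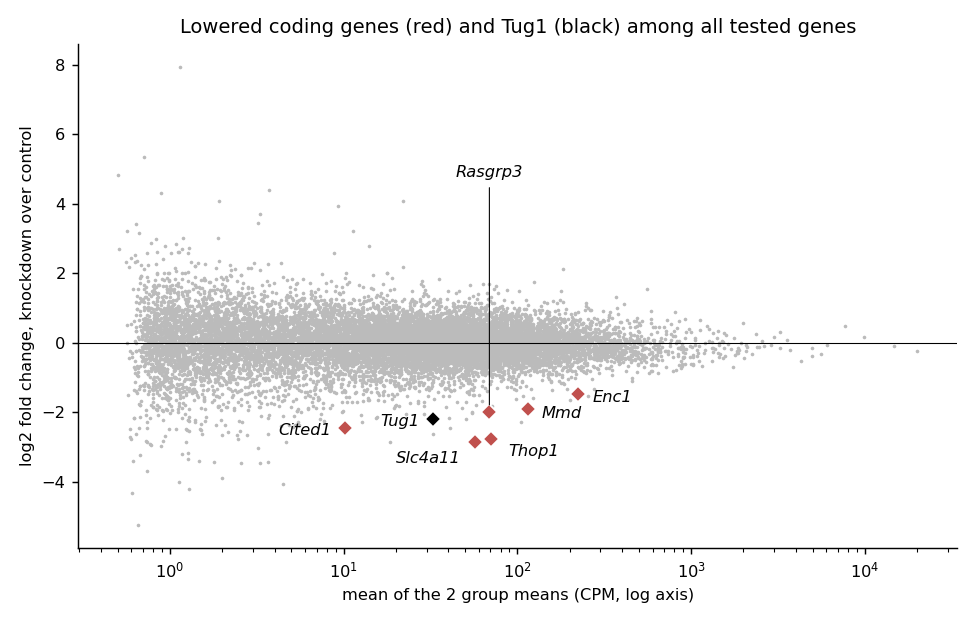
Log2 fold change of every tested gene (grey) against its mean level in CPM on a log axis, with the 6 genes as red and Tug1 as black diamonds. The 6 genes lie in the lower part of the cloud, from -2.84 for Slc4a11 to -1.48 for Enc1, and some other genes lie lower.

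The choice had no stated threshold, so the genes around its edge are given as values. Of 9125 coding genes with a mean of at least 10 CPM, 60 had a log2 fold change at or under that of Enc1, and 54 of these are not among the 6. Slc4a11, Thop1 and Cited1 ranked 2, 3 and 4, Rasgrp3 and Mmd 13 and 14, and Enc1 lay near rank 60. By log2 fold change over its SE, Slc4a11, Thop1, Mmd, Enc1 and Rasgrp3 ranked 2, 3, 5, 6 and 7 and Cited1 125. Just outside Cited1 came Dusp6, an ERK phosphatase gene, at -2.28. Just outside Mmd came the acyltransferase gene Agpat2 at -1.87. The values beside Enc1 were those of Rin1, a Ras effector gene, at -1.49 and Klhl23 at -1.48.

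By their pattern over the 6 libraries, some genes ran close to each of the 6. Likeness was measured as the root mean square difference of log2 levels, each set against the gene's own control mean, over 6 libraries and 11756 genes. The log2 levels carried a prior count of 2, which draws the changes of genes with few counts toward 0. Enc1 had the nearest match, Washc4 at 0.0360, a subunit gene of the WASH complex that went from 158.8 ± 6.31 to 55.3 ± 1.48 CPM (SD, n = 3 each). Klhl23, like Enc1 a kelch gene, followed at 0.0525. Closest to Mmd were Steap1, a metalloreductase gene, at 0.0744 and Cd55, a complement regulator gene, at 0.0762. Closest to Rasgrp3 were Terf2, a telomere-binding factor gene, at 0.131 and Foxc2, a forkhead factor gene, at 0.133. Closest to Cited1 were Igsf9 at 0.148 and the glutamate transporter gene Slc17a6 at 0.165. The alcohol dehydrogenase gene Adh1 was nearest to both Thop1 (0.183) and Slc4a11 (0.217), with only 28 to 33 counts per control library and 2 to 4 per knockdown library. The next were the long non-coding RNA Dancr for Thop1 (0.236) and Phlda2 for Slc4a11 (0.240). In the reported fit Adh1 was at -3.17 and Phlda2 at -3.47, larger falls than those of Thop1 and Slc4a11. Their nearness thus holds for levels with that prior count, and was not measured without it. With 2 groups of 3, any gene lowered to a like degree scores as close.

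The relatives and partners of each gene were then compared, in 6 lists with 220 other genes. The first question was whether the SLC4 family and other acid-base transporters moved with Slc4a11. Of 9 other SLC4 genes 4 were tested, and only Slc4a7, a sodium bicarbonate cotransporter gene, was lower, from 118.0 ± 4.29 to 61.0 ± 2.24 CPM (SD, n = 3 each; log2 fold change -0.95, SE 0.0552, edgeR adjusted p 1.38e-12). The anion exchanger gene Slc4a2 was at 237.6 ± 15.0 and 240.7 ± 13.4 CPM (log2 fold change 0.02, edgeR adjusted p 0.773). The cotransporter gene Slc4a4 had 9 to 29 counts per library and no call (edgeR adjusted p 0.436). Outside the family, the lactate transporter gene Slc16a1 (MCT1) fell from 319.5 ± 9.25 to 174.1 ± 3.20 CPM (log2 fold change -0.88) and the anion transporter gene Slc26a11 fell by 0.74. Of 5 tested sodium/proton exchanger genes 2 rose and 0 fell. Over the acid-base list, 18 of 36 genes were tested, 6 were higher and 5 lower, and the median log2 fold change was 0.07, beside 0.00 over all tested genes. Over all tested genes 30.8% were higher and 30.9% lower.

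For Thop1 the comparison was with other enzymes that cut short peptides. Its closest relative, the neurolysin gene Nln, averaged 51.0 ± 3.09 and 55.2 ± 2.60 CPM in control and knockdown libraries (log2 fold change 0.12, SE 0.0639, edgeR adjusted p 0.119), and was called higher (0.17) when libraries were scaled by their totals. Mipep, the mitochondrial member of the same enzyme family, rose from 16.0 ± 0.690 to 23.0 ± 0.439 CPM (log2 fold change 0.52, SE 0.0864, edgeR adjusted p 1.76e-05). Of 14 tested aminopeptidases, dipeptidases and like enzymes, 9 fell and 4 rose, with log2 fold changes from -0.89 to 0.67. Rnpep (aminopeptidase B) fell by 0.74, Acy1 (aminoacylase) by 0.89, and Tpp2, which acts downstream of the proteasome, by 0.65. Ace, the angiotensin-converting enzyme gene, had a log2 fold change of -1.65 (SE 0.396) on 11 to 24 counts per control library and 5 to 7 per knockdown library. Of 10 tested endopeptidases 4 rose and 2 fell. Over the list 30 of 34 genes were tested, 9 higher and 14 lower, with a median log2 fold change of -0.11.

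Among CITED proteins and their partners, Cited2 fell from 228.6 ± 13.5 to 138.4 ± 9.97 CPM (SD, n = 3 each; log2 fold change -0.72, SE 0.0561, edgeR adjusted p 1.55e-10). Cited4 was not tested, with 0 to 3 counts per library. Tfap2a encodes AP-2 alpha, a factor that CITED proteins coactivate, and was the only 1 of 5 TFAP2 genes with enough counts to test. It fell from 45.5 ± 3.58 to 15.7 ± 1.83 CPM (log2 fold change -1.53, SE 0.0887, edgeR adjusted p 1.35e-12). The TGF-beta effector Smad2 rose from 19.6 ± 2.24 to 45.8 ± 3.11 CPM (log2 fold change 1.22, SE 0.0844, edgeR adjusted p 2.36e-11). The coactivator gene Kat2a fell by 0.43. Crebbp (0.21) and Kat2b (0.20) were higher, but stood at -0.0249 and -0.00388 with an offset for gene length, and Crebbp had no call without control library 1 (0.17). Ep300 was lower (-0.15), with no call without control library 2 (-0.11), without knockdown library 1 (-0.11), with library totals (-0.0971) or at an adjusted p of 0.01. Of 13 tested genes of this list 5 were higher and 5 lower, with a median log2 fold change of -0.08. The split was 3 higher and 7 lower with an offset for gene length, and 6 higher and 4 lower when libraries were scaled by their totals.

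Of the 10 other PAQR genes 7 were tested, and 5 fell and 0 rose (4 and 0 when libraries were scaled by their totals). Their median log2 fold change was -0.30, beside 0.00 over all tested genes, and all 7 values were negative, from -0.81 to -0.03, except that Paqr8 was at 0.0218 with library totals and Paqr4 just above 0 without control library 2 or without knockdown library 3. Paqr6 went from 7.62 ± 0.531 to 4.35 ± 0.876 CPM (log2 fold change -0.81) and Paqr7 from 15.3 ± 0.371 to 9.82 ± 1.48 CPM (-0.64). Paqr3, a Golgi protein that tethers RAF, fell by 0.44, and the adiponectin receptor genes Adipor2 and Adipor1 by 0.30 and 0.15, the latter with no call under library totals (-0.0921). Paqr8 (-0.03) and Paqr4 (-0.20) had no call. Mmd2, the nearest relative of Mmd, had no count in any library. The 7 genes were smaller in their change than Mmd at -1.89, a difference that was not tested because Mmd was chosen on this contrast.

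Enc1 was set beside 49 other kelch genes and 10 genes of the CUL3 ligase and its substrate Nfe2l2. Of 36 tested kelch genes 15 rose and 9 fell, with log2 fold changes from -1.48 to 0.96. Klhl23 fell from 29.8 ± 0.969 to 10.7 ± 0.208 CPM (log2 fold change -1.48, SE 0.0884, edgeR adjusted p 2.08e-12), Kbtbd8 by 1.15 and the influenza NS1-binding protein gene Ivns1abp by 1.10. Klhl25, the closest relative of Enc1, was at 15.1 ± 2.35 and 14.7 ± 0.522 CPM (log2 fold change -0.04, edgeR adjusted p 0.757). Keap1, which marks NRF2 for degradation, rose by 0.26, and Nfe2l2, which encodes NRF2, by 0.16. The scaffold gene Cul3 had no call (0.09, edgeR adjusted p 0.13), though it was called higher with library totals (0.146). Of the 10 genes of the ligase machinery and Nfe2l2 together, 5 fell, among them Rbx1 by 0.47 and Cops5 by 0.42. Of the rest, 2 rose and 3 had no call. Over the whole list 46 of 59 genes were tested, with 17 higher, 14 lower and a median log2 fold change of 0.07.

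**Figure D3:**
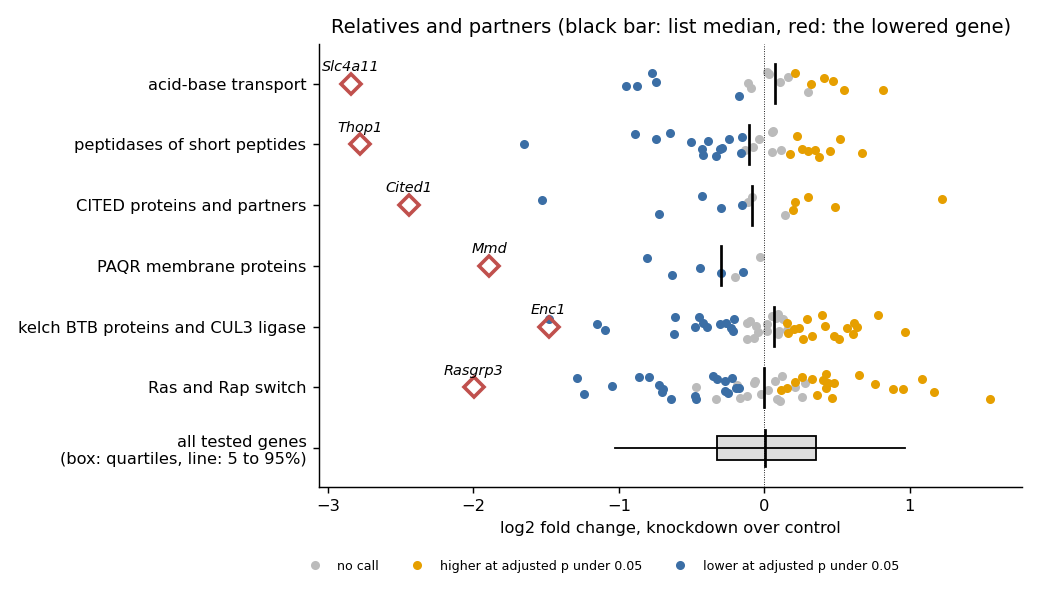
Log2 fold change of each tested relative or partner (points; orange higher and blue lower at an edgeR adjusted p under 0.05, grey no call) in the 6 lists, with list medians as black bars, the lowered gene of each list as an open red diamond, and all tested genes as a box. List medians ran from -0.30 (PAQR membrane proteins) to 0.07, and each red diamond lies at or beyond the low end of its list.

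Rasgrp3 was compared with the other regulators of Ras and Rap. Rasgrp2 had 22 to 38 counts per library and no call (log2 fold change -0.47, SE 0.242, edgeR adjusted p 0.0954), although it was called lower without knockdown library 3 (-0.65). Rasgrp1, with 0 to 5 counts, and Rasgrp4, with 0 or 1, were not tested. Of 11 other exchange factors tested 4 rose, among them Rapgef1 (0.95), Sos2 (0.88) and Sos1 (0.26, with no call at 0.106 under the length offset), and 2 fell. Rasgrf1 rose on low counts, from 0.512 ± 0.421 to 1.53 ± 0.114 CPM (log2 fold change 1.56, and 2.46 without control library 1). Rapgef5 fell on low counts (-1.24, SE 0.412, edgeR adjusted p 0.0121), but had no call without control library 3 (-1.12), without knockdown library 1 (-1.03), in DESeq2 or at an adjusted p of 0.01.

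Of 11 GTPase genes, 5 fell and 2 rose. Rap2b fell by 1.05 and Rras2 by 0.69, Hras and Rap1a fell by 0.27 each, and Rap2c rose by 0.76. Nras (-0.07) had no call. Among 14 tested genes for GTPase-activating proteins, which switch Ras or Rap off, 7 rose and 4 fell. Rasal2 rose from 10.2 ± 0.803 to 22.9 ± 2.80 CPM (log2 fold change 1.17, SE 0.109), while Sipa1, a Rap inactivator gene, fell from 56.5 ± 2.19 to 23.1 ± 2.02 CPM (-1.29, SE 0.0736). Diacylglycerol kinases remove the lipid to which Rasgrp3 responds. Of 6 tested genes for them 3 fell, including Dgka (-0.73) and Dgkd (-0.70), 1 rose and 2 had no call. Downstream, Araf (0.65) and Braf (0.47) rose and Map2k1 (-0.32) fell. Over the whole list 54 of 61 genes were tested, with 19 higher, 19 lower and a median log2 fold change of 0.00. With the length offset 13 were higher and 21 lower.

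**Figure D4:**
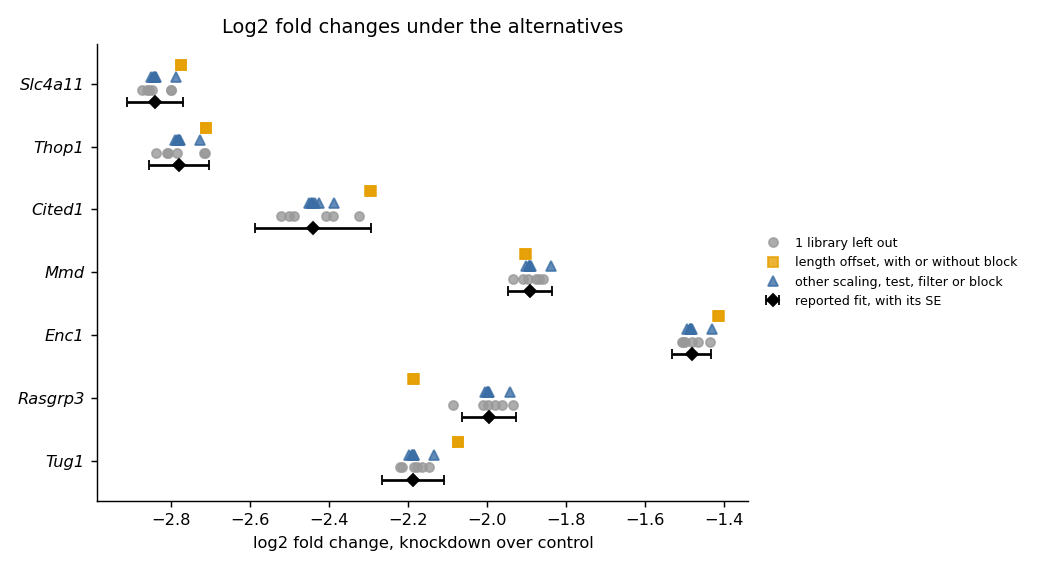
Log2 fold change of the 6 genes and Tug1 in the reported fit (black, with its SE) and under other scaling, tests, filters or the replicate block (blue), with a length offset (orange) and with 1 library left out (grey). Every value is negative, and the widest shift is that of Rasgrp3 with the length offset, from -2.00 to -2.19.

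The genes beside each of the 6 on its chromosome were compared last, by their order in the GRCr8 gene table, with the 5 nearest tested genes on either side. Being nearest in order did not mean being close. Neighbours of Slc4a11 lay within 349 kb, those of Mmd from 200 to 3710 kb away, and those of Rasgrp3 up to 3570 kb away. The 6 genes lie on 6 different chromosomes. Of 60 neighbours 40 were called (66.7%), 18 higher and 22 lower (36.7%), with a median log2 fold change of -0.03. These shares lay near those of all tested genes, of which 61.7% were called and 30.9% were lower. Next to Slc4a11, Itpa fell by 0.33 and the unnamed gene RGD1565616 rose by 0.42, a call that was lost with the length offset (0.17). Next to Thop1, the kinase gene Map2k2 rose by 0.37 and Sgta by 0.21. Beside Cited1, the ribosomal protein gene Rps4x, which has processed copies and is uncertain for that reason, fell by 0.39, and Hdac8 had no call (0.15). Beside Enc1, Arhgef28 had no call (0.01). Beside Rasgrp3, Fam98a fell by 0.20 and Ltbp1, which encodes a TGF-beta binding protein, rose from 249.5 ± 6.76 to 503.6 ± 7.39 CPM (log2 fold change 1.01, SE 0.0433). The gene before Mmd in order, 943 kb away, was the BMP antagonist gene Nog. It was lower at 0.544 ± 0.269 CPM against 1.90 ± 0.262 CPM in controls (log2 fold change -1.79, SE 0.357). On the other side of Mmd, 200 kb away, Stxbp4 rose by 0.82. Of the 10 neighbours of Mmd 6 were lower, of Enc1 5, of Slc4a11, Thop1 and Cited1 3 each, and of Rasgrp3 2, beside 30.9% of all tested genes. As the distances differ, these counts are not like for like, and their differences were not tested.

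**Figure D5:**
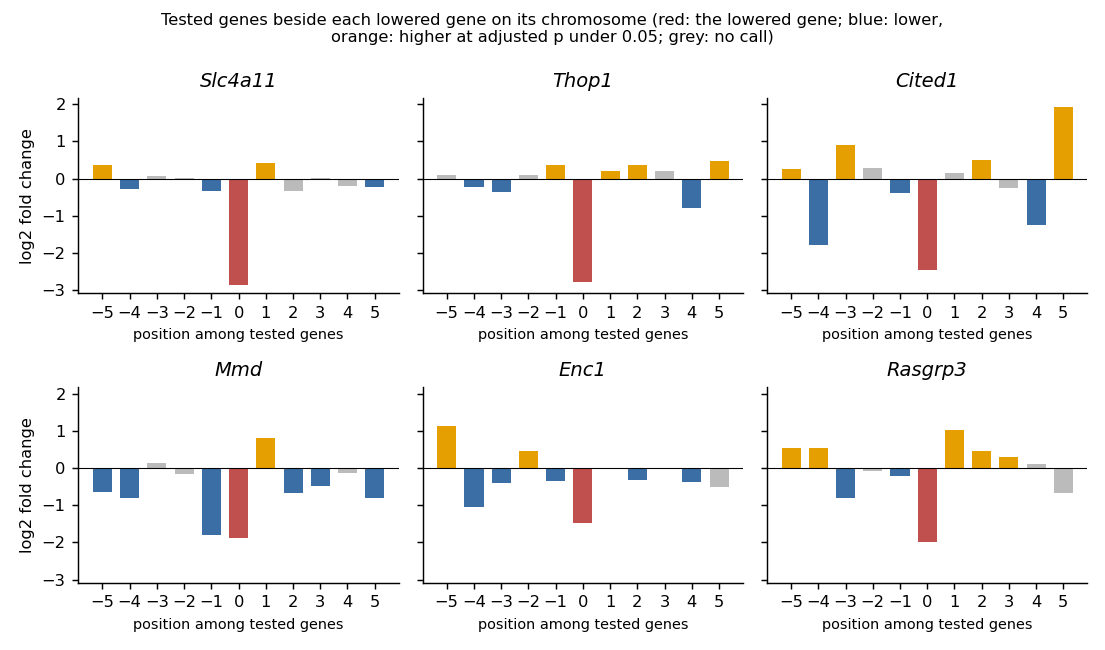
Log2 fold change of each of the 6 genes (red, position 0) and of the 5 nearest tested genes on either side, in gene order and not to distance; blue and orange bars are lower and higher at an edgeR adjusted p under 0.05, grey bars have no call. Neighbours of Slc4a11 lay between -0.33 and 0.42, and neighbours of Cited1 between -1.79 and 1.93.

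In the same table a long non-coding gene, LOC134480710, overlaps Mmd and a pseudogene, Rpl32-ps18, overlaps Rasgrp3. Neither name was matched in the counts, and whether reads were counted by strand is not given in the sources used here, so reads of the overlapping parts cannot be told apart. The genomic spans of the 6 genes ranged from percentile 12.1 of tested genes (Cited1) through 31.4 to 33.2 (Enc1, Thop1 and Slc4a11) and 57.6 (Mmd) to 86.9 (Rasgrp3).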

How the data were processed

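For 6 poly-A RNA libraries of H9c2 cells the deposited table holds raw counts by gene symbol, whole numbers with no scaling visible. Stranded libraries were made from 500 ng of RNA with an integrity number of at least 9, per the labels' protocols. FastQC 0.11.7, fastp 0.14.1 and STAR 2.5 are named in the submitters' processing notes; the counting tool, genome build, annotation and use of strand are not given in the sources used here. No column lay outside the 6 libraries.

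In R 4.3.3, low genes were removed with edgeR's filterByExpr at a count of 10 and a total of 15, which left 14216 genes. Libraries were scaled by TMM, and the groups were compared with edgeR 4.0.16's quasi-likelihood test (two-sided) on all 6 libraries, with Benjamini-Hochberg adjustment over all tested genes and a call at an adjusted p under 0.05. The SE of a log2 fold change (knockdown over control) is its size over the root of the F statistic. Levels are TMM-scaled CPM, given with the SD between libraries.

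The 6 genes and the lists were chosen with earlier results of these data known, and the motifs with the promoters in view. Named beside the 6 genes and Tug1 were their closest relatives, called list genes with a log2 fold change of 1 or more in either direction or the 3 smallest p-values, the nearest tested gene on either side, the 2 genes most alike in pattern, and, chosen after their values were seen, further list members to show their roles. Some genes that this rule names are not reported here. Names were matched to RefSeq's GRCr8 gene table for 30071 of 40456 symbols. The promoter tables gave 27456 windows, 1 per gene. Alternatives were DESeq2 1.42.0 (size factors and Wald test), library totals, limma-voom (limma 3.58.1), 2 other filters, an adjusted p under 0.01, the replicate block, a lowess offset (span 0.3) for genomic span, and each library left out in turn.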

Additional observations from a re-analysis of the deposited data

How the results depend on the processing

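All alternatives were planned. The 6 genes were lower in each of 15 alternatives. With 1 library left out, log2 fold changes ranged from -2.87 to -2.80 for Slc4a11, -2.84 to -2.72 for Thop1, -2.52 to -2.33 for Cited1, -1.93 to -1.86 for Mmd, -1.51 to -1.44 for Enc1 and -2.09 to -1.94 for Rasgrp3. Rasgrp3 moved to -2.19 with the length offset, alone or with the replicate block (-2.188); it is the longest of the 6 genes. The acid-base list had 7 changed genes at an adjusted p under 0.01, and 11 at 0.05. With the length offset the CITED list had 7 lower and 3 higher genes, the Ras and Rap list 21 and 13, and with library totals the peptidases had 12 and 11. Library totals moved the median of all tested genes to 0.0571. Deviations of libraries with the same replicate number had correlations near 0 (-0.00531, 0.0298 and 0.027), though 4 of 6 libraries correlated best with their own number. These values do not settle whether the numbers pair the libraries. With the replicate block Slc4a11 was at -2.84 and 8848 genes were called instead of 8773.

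Of 94 other genes named or covered by the naming rule, 75 kept direction and call in every alternative that gave a value (none with the 1 CPM filter for Ace and Rapgef5). Those that changed sign had no call in the reported fit, except Crebbp and Kat2b. With the length offset Slc4a4 was at -0.106, Nln at -0.0743, Hdac8 at -0.170, Arhgef28 at -0.358, Crebbp at -0.0249, Kat2b at -0.00388, Cul3 at -0.0596 and Nras at 0.00786, and with the block as well at -0.0798, -0.0738, -0.168, -0.358, -0.0254, -0.00315, -0.0590 and 0.00679. Klhl25 was at 0.0108 and Paqr8 at 0.0218 with library totals, and Arhgef28 at -0.00284 without a filter. With 1 library left out, log2 fold changes ran from -0.0489 to 0.578 for Slc4a4, from -0.0261 (and -0.0137) to 0.0695 for Slc4a2, from -0.131 to 0.0864 for Klhl25, from -0.508 to 0.0154 (and 0.00563) for Paqr4, and from -0.0361 (and -0.00452) to 0.0527 for Arhgef28. The cause of these shifts was not tested. Depth limits genes near 1 CPM, about 13 counts per library, and the 3 counts taken as not detected equal 0.221 to 0.231 CPM before the TMM factor. Both cover counting error only.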

Other observations

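Between Slc4a11 and Rasgrp3, 8 coding genes outside the 6 had log2 fold changes as low at a mean of at least 10 CPM, and are named after their values were seen. They were the ERK phosphatase gene Dusp6 (-2.28), Trim47 (-2.27), Tmem151a (-2.19), Tm4sf1 (-2.16), the homeobox gene Hoxd13 (-2.16), Hebp2 (-2.15), the telomere-binding factor gene Terf2 (-2.06) and the interferon-induced gene Isg15 (-2.03). Hoxd13 went from 65.9 to 14.8 CPM and Tmem151a from 82.5 to 18.1 CPM. On the chromosome of Cited1 and 162 kb from it, the retrotransposon-derived gene Rtl5 went from 89.6 ± 3.52 to 25.9 ± 1.57 CPM (SD, n = 3 each). The non-coding gene Ftx, 1260 kb from Cited1, went from 0.924 ± 0.207 to 3.55 ± 0.485 CPM.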
